A study of Mus musculus with 25 samples.

Results

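The oligoadenylate synthetase (OAS) family was followed in mouse macrophages at rest and under stimulation. The 8 members are the Oas1a, Oas1b, Oas1c, Oas1g, Oas2, Oas3, Oasl1 and Oasl2 rows among 24411 gene symbols, and they were taken by symbol, whatever their values. All 8 had counts in the libraries. The other 4 Oas1 rows, Oas1d, Oas1e, Oas1f and Oas1h, were looked up as well. Oas1d had 1 sense count in each of 2 libraries of IFN-γ-primed LPS at 4 h, and Oas1e, Oas1f and Oas1h had 0 sense counts in all 25 libraries.

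The libraries came from bone marrow-derived macrophages (BMDMs) of C57BL/6 mice, kept in DMEM with M-CSF (25 ng/ml, 4 days), the growth factor that turns marrow precursors into macrophages, and from RAW264.7, kept in RPMI, a macrophage line made from a Balb/c mouse infected with Abelson leukemia virus. The 21 BMDM libraries form 7 groups of 3. They are a control cultured for 4 h, IFN-γ at 100 U/ml with LPS at 100 ng/ml for 1, 4, 12 and 24 h (the classical, or M1, activation), and IL-4 or IL-13 at 10 ng/ml for 12 h (the alternative, or M2, activation). The 4 RAW264.7 libraries form 2 groups of 2, a control cultured for 4 h and LPS alone at 100 ng/ml for 4 h. The labels name no engineered allele. A single control, harvested at 1 time, stood for every BMDM time point, the length of the IFN-γ priming is not given in the sources used here, and BMDMs given LPS alone were not analysed here. The study's methods describe its replicates as biological, from independent RNA samples, and the labels do not tie them to separate mice or cultures, so the p-values measure the spread between these samples.

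Sense counts on genes ran from 2378640 to 3357300 per library, and 1502620 to 2532500 were left after taking out Rn45s, the ribosomal RNA precursor gene. Levels are given in CPM, the count of a gene scaled to that remainder in the same way in every library. The macrophage markers Adgre1, Csf1r, Cd68, Itgam, Lyz2 and Fcgr1 had counts in every group, and Mertk had 0 counts in both RAW264.7 groups. All 3 T cell markers found in the files and all 3 erythroid markers had 0 counts in every library, and the summed level of the 4 stromal markers ran from 0 to 94.4 CPM. Other marker sums moved with the time course. That of the 7 macrophage markers was 24619 to 26474 CPM in control BMDMs, 16319 to 17046 CPM at 1 h, 12668 to 13786 CPM at 4 h, 14832 to 17035 CPM at 12 h and 25991 to 29245 CPM at 24 h. That of the 4 conventional dendritic cell markers was 0.582 to 1.19 CPM in controls, 45.7 to 50.8 CPM at 1 h, 10.6 to 14.0 CPM at 4 h, 3.37 to 6.28 CPM at 12 h and 0 to 0.93 CPM at 24 h, with 1 or 2 of the 4 at 0 in each group. Lyz2, at 21463 to 23359 CPM in controls, made up most of the macrophage sum, and the other macrophage markers did not move alike. At 24 h Adgre1 (3676 to 4298 CPM against 948 to 1153 CPM) and Fcgr1 lay above the controls. Csf1r, Cd68 (261 to 397 CPM against 889 to 1002 CPM) and Mertk lay below them, and Itgam and Lyz2 overlapped them. The part of these markers in the results was not tested. In the time course, edgeR's TMM scaling added 0.53 to every log2 fold change of 4 h against control, and 0.19, 0.31 and 0.23 for 1, 12 and 24 h, relative to scaling by library size. The fold changes given below carry that shift and the CPM do not.

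OAS enzymes bind double-stranded RNA, a by-product of viral replication, and then join ATP into short 2′-5′-linked oligoadenylates (2-5A). The 2-5A then act as a messenger inside the cell that limits viral growth. The OAS genes are classic targets of interferon, through the factor ISGF3 that binds the interferon-stimulated response element (ISRE), and macrophages stimulated through TLR4 make interferon-β of their own.

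All 8 members lie on mouse chromosome 5 (GENCODE M21, GRCm38, the mm10 build of the files). Oasl2 (114896936 to 114912234) and Oasl1 (114923240 to 114937915) lie head to tail on the plus strand, 11006 bases apart. The other 6 lie in a run of 191320 bases from Oas2 to Oas1d, with Oas1c and Oas1b back to back and 121 bases between their starts. Promoter sequences of RefSeq (GRCm38.p6) were at hand for 6 members, Oas1a, Oas1g, Oas1c, Oas3, Oasl1 and Oasl2. The ISRE core GAAANNGAAA was found on either strand in 4 of these 6, in windows from 250 bases before to 50 after the start, against 3.44% of 32851 promoters. The 5 stretches below are shown because they hold every ISRE core found in these members and the IRF cores of Oasl1. An IRF core of Oas1g (-143 to -136 from the start) and one of Oas3 (4 to 11) lie outside them. Capitals mark ISRE cores in the first 4, and matches to the shorter interferon regulatory factor (IRF) core AANNGAAA in Oasl1. Every ISRE core also holds an IRF core, and 23.9% of promoters hold an IRF core.
Oas1a: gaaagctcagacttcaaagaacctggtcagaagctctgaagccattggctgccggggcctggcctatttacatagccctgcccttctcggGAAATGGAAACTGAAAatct
Oas1g: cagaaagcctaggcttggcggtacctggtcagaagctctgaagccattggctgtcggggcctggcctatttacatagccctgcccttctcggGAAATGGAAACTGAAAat
Oas1c: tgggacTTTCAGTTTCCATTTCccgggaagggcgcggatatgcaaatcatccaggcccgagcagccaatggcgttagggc
Oas3: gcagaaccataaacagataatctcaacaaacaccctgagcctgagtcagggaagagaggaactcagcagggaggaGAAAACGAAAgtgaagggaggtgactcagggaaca
Oasl1: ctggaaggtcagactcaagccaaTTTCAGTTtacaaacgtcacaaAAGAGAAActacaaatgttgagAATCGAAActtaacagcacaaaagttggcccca

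The Oas1a stretch (chr5:120907526-120907635, minus strand) and the Oas1g stretch (chr5:120887614-120887723, minus strand) end at the base before the RefSeq start and matched at 99 of 112 aligned positions (88.4%). Both hold a pair of overlapping ISRE cores right before the start, within the 16-base run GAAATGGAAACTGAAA. The Oas1c stretch (chr5:120812555-120812634, minus strand) holds the same run on the other strand, at 120812613 to 120812628. That places it 7 to 22 bases before the annotated start of Oas1b, which reads the other way. The run was found in 7 promoters of the 32851 (0.0213%), those of Oas1a, Oas1c, Oas1g, Apol9a and Apol9b. Oas3 (chr5:120777700-120777809, minus strand) holds a single ISRE core. Oasl1 (chr5:114923040-114923139, plus strand) holds 3 IRF cores and no ISRE core, and neither was found in the Oasl2 window. The gamma-activated site TTCNNNGAA, an element of genes that answer IFN-γ, was found in Oas1a only (8.30% of promoters), and the κB letters GGGNNTTTCC in 0 of the 6 (1.63% of promoters). These matches describe letters in a short window and were not tested for binding.

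**Figure D1:**
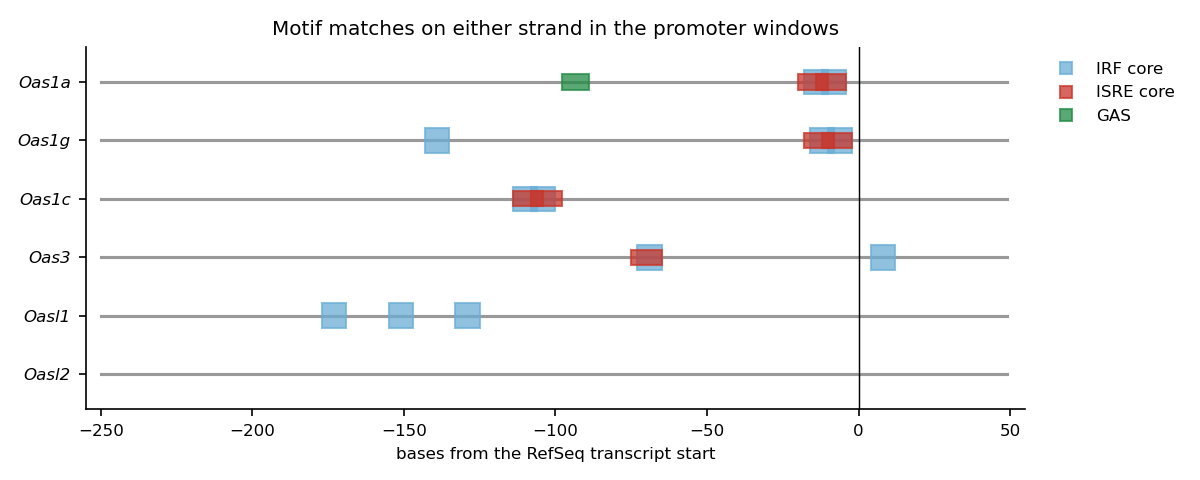
Motif matches on either strand in the RefSeq promoter windows of the 6 members with a sequence (x axis, bases from the transcript start). Oas1a and Oas1g carry their paired ISRE cores next to the start, Oas1c further upstream on the other strand, and Oasl2 has no match.

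Across the IFN-γ-primed LPS time course, the summed level of the 8 members was 69.3 CPM ± 3.10 (SD, n = 3) in control BMDMs, 139.8 CPM ± 5.43 at 1 h, 2277 CPM ± 130 at 4 h, 2828 CPM ± 46.9 at 12 h and 2379 CPM ± 86.5 at 24 h. A call needed a Benjamini-Hochberg adjusted p no higher than 0.01, over all 9568 genes tested in edgeR, and a log2 change of 1.5 or more up or down. At 1 h, 2 of the 8 members were called higher, where 5.04% of all genes were, and 1 was called lower, where 2.08% were. Members that were low at control and 1 h passed edgeR's filter on low counts through the later groups. With only the control and 1 h libraries in the fit, 4 members passed it. Of these, 2 were called higher and 0 lower, beside 441 and 172 of 8966 genes. At 4 h, 7 of 8 were called higher and 0 lower, beside 11.4% of all genes higher and 11.4% lower. At 12 h and at 24 h all 8 members tested were called higher, beside 8.87% and 7.93% of all genes. The members' median log2 fold change was 0.03 after 1 h, 4.60 after 4 h, then 5.42 and 5.04, and that of all genes was -0.03, -0.07, -0.03 and 0.02. These medians are the same with Oasl1 at its lower bound. In such bulk samples, a change in the share of responding cells and a change in RNA per cell cannot be told apart.

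**Figure D2:**
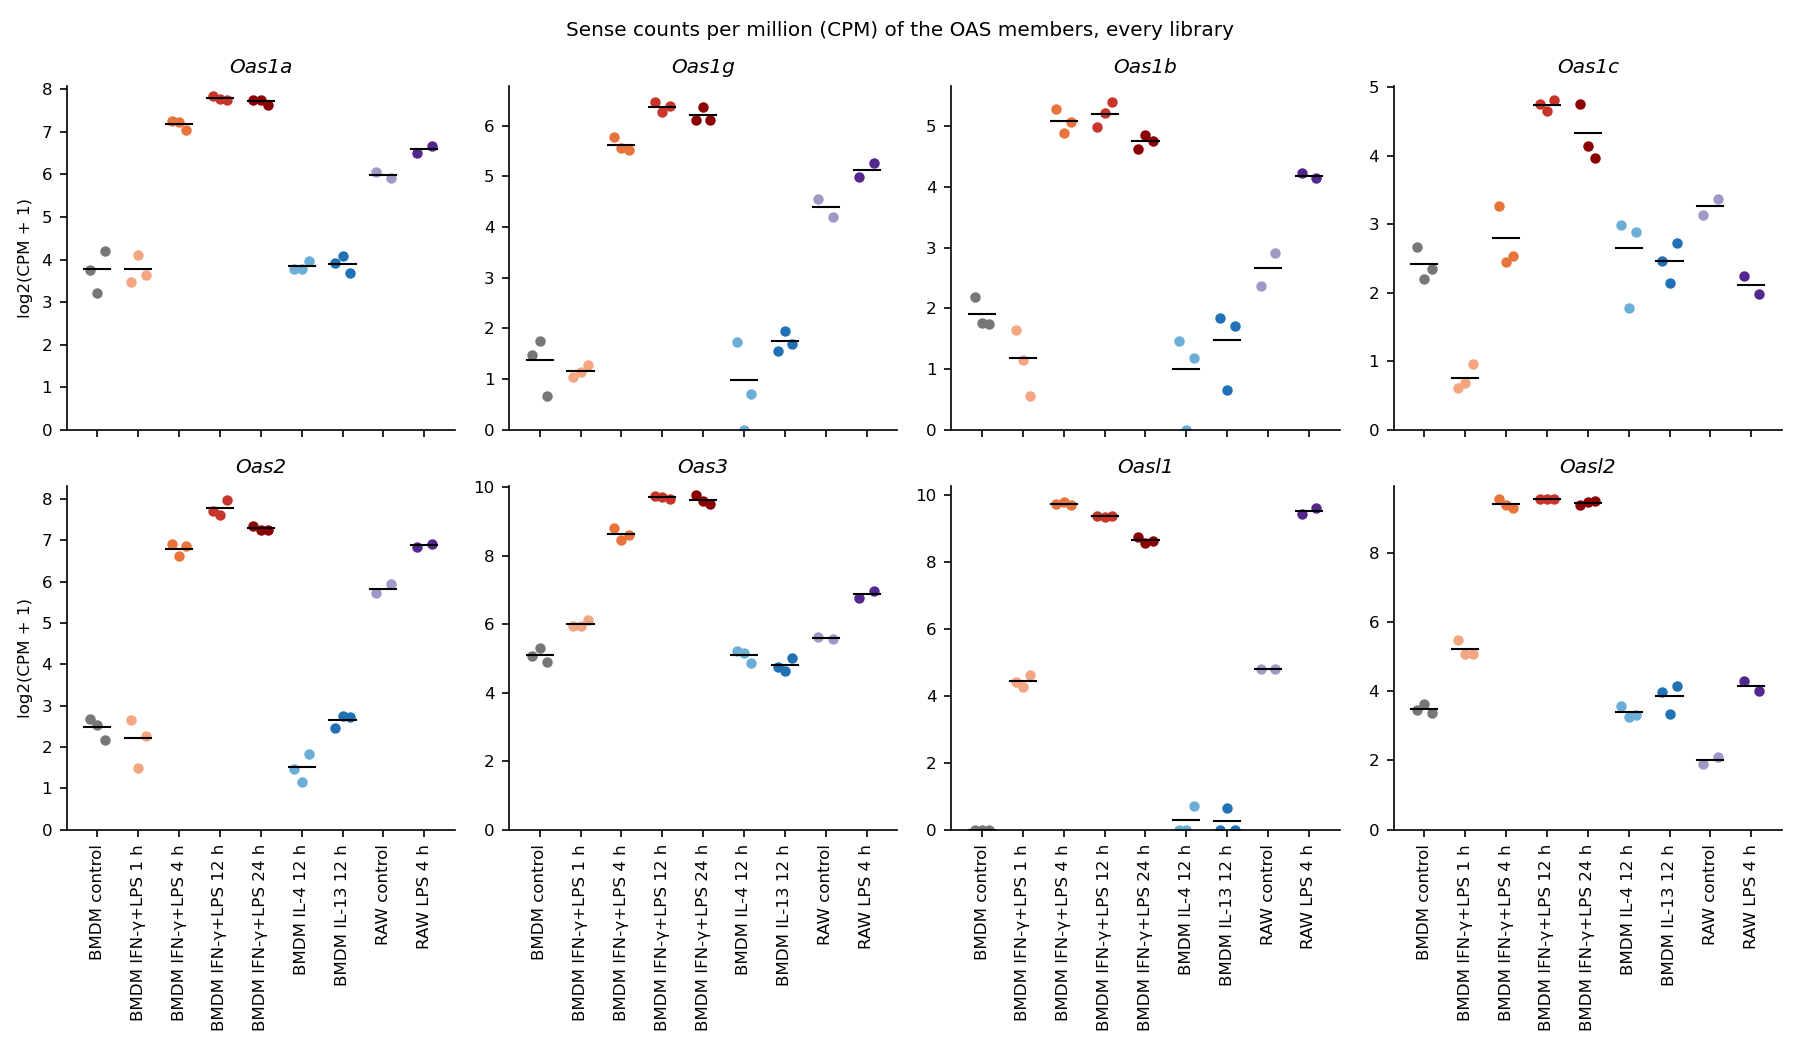
Level of each member in all 25 libraries, as log2(CPM + 1) on the y axis, 1 point per library and a bar at the log2 of the group mean plus 1. From 4 h of IFN-γ-primed LPS on, 7 members lie above every control library, and Oas1c does so from 12 h. The share of all genes that do so was not counted.

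Oas1a and Oas1g encode the small OAS1 enzymes, and neither was called at 1 h. Oas1a stood at 12.5, 8.34 and 17.5 CPM in the control libraries and at 10.1, 16.3 and 11.4 CPM at 1 h. It reached 152, 148 and 131 CPM at 4 h, 229, 216 and 213 CPM at 12 h and 215, 214 and 197 CPM at 24 h. The control and 1 h libraries overlapped, and every library from 4 h on was above all of them. The log2 fold change of Oas1a was 4.01 ± 0.16 (SE, adjusted p = 2.15e-26 by edgeR) at 4 h and 4.40 ± 0.16 at 12 h. Oas1g started from a lower level, 1.78, 2.38 and 0.582 CPM, that is 3, 4 and 1 counts, and reached 53.9, 46.2 and 44.5 CPM at 4 h. At 12 h it stood at 86.9, 75.9 and 82.3 CPM, and at 24 h at 67.9, 81.4 and 68.3 CPM. The 12 h and 24 h libraries overlapped, as they did for Oas1a. Its log2 fold change was 5.39 ± 0.29 at 4 h (adjusted p = 8.34e-22) and 5.94 ± 0.26 at 12 h. Of the 101-base stretches of Oas1a transcripts, the read length here, 40.6% also occur in Oas1g, and 31.0% of those of Oas1g occur in Oas1a. Counts on this pair are therefore uncertain, Oas1c shares 4.19% with Gm43069, and Oas1b, Oas2, Oas3, Oasl1 and Oasl2 share 0% with any other gene.

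Oas1b and Oas1c share the 121 bases between their starts, and their time courses were unlike. Oas1b, the gene tied to flavivirus resistance in mice, is annotated as a polymorphic pseudogene in this genome. It stood at 3.57, 2.38 and 2.33 CPM in controls and at 2.13, 1.21 and 0.476 CPM at 1 h. It was at 37.9, 28.4 and 32.5 CPM at 4 h, at 30.7, 36.0 and 40.9 CPM at 12 h and at 23.7, 28.0 and 26.1 CPM at 24 h. The 4 h and 12 h libraries overlapped, and the log2 fold change against control was 4.06 ± 0.29 at 4 h and 3.97 ± 0.28 at 12 h (adjusted p = 5.35e-17 and 4.93e-17). Oas1c stood at 5.35, 3.58 and 4.07 CPM in controls and at 0.532, 0.604 and 0.952 CPM at 1 h, which is 1, 1 and 2 counts. Every 1 h library lay below every control, and Oas1c was called lower, with a log2 fold change of -2.32 ± 0.64 (adjusted p = 0.00343). That call rests on few counts: with DESeq2 the adjusted p was 0.0141, and leaving out control replicate 1 or any 1 of the 1 h libraries gave 0.0107 to 0.0205. With only the control and 1 h libraries in the fit, Oas1c did not pass the filter on low counts and was not tested. At 4 h Oas1c was back at 8.65, 4.45 and 4.81 CPM, overlapping the controls (log2 fold change 0.95 ± 0.41, adjusted p = 0.0424). It then reached 26.1, 24.0 and 27.0 CPM at 12 h and 26.1, 16.6 and 14.6 CPM at 24 h, above every control (2.86 ± 0.29 at 12 h, adjusted p = 6.12e-12). The difference between these 2 genes' fold changes was not tested.

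Oas2 and Oas3 encode the larger synthetases, with several OAS units in 1 chain. Oas2 stood at 5.35, 4.77 and 3.49 CPM in controls and at 5.32, 1.81 and 3.81 CPM at 1 h. It rose to 119, 96.9 and 115.0 CPM at 4 h and to 207, 193 and 251 CPM at 12 h, and stood at 162, 150.4 and 152 CPM at 24 h. Control and 1 h overlapped, and the 3 later times were separate from each other, with 12 h highest. The log2 fold change was 5.10 ± 0.21 at 4 h (adjusted p = 3.68e-26) and 5.87 ± 0.19 at 12 h. Oas3 was one of the few members to move within 1 h, from 32.7, 38.1 and 28.5 CPM to 60.6, 61.0 and 68.0 CPM. Every 1 h library was above every control, and the log2 fold change of 1.12 ± 0.14 (adjusted p = 9.20e-09) lay under the size cutoff. Oas3 then reached 448, 349 and 388 CPM at 4 h, 859, 834 and 810.0 CPM at 12 h and 880, 767 and 723 CPM at 24 h. Its log2 fold change was 4.10 ± 0.12 at 4 h and 4.96 ± 0.12 at 12 h (adjusted p = 9.14e-32 and 2.92e-35).

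Oasl1 and Oasl2 are the OAS-like genes, whose products carry ubiquitin-like ends. OASL1 makes no 2-5A and is known for holding back the translation of IRF7. Oasl1 had 0 counts in all 3 control libraries, which allows a group mean of up to 0.591 CPM. It had 20.2, 18.1 and 23.3 CPM after 1 h, then stood at 845, 880 and 831 CPM at 4 h, at 664, 641 and 662 CPM at 12 h and at 428, 380 and 394 CPM at 24 h. All 5 groups were apart from each other, with the top at 4 h and a stepwise fall after it. Against the limit of 3 counts over the control group, which covers counting error only, the level was at least 34.8-fold higher at 1 h and at least 1442-fold higher at 4 h, in CPM. The adjusted p was 8.22e-17 at 1 h and 3.74e-39 at 4 h, and the fitted fold change from 0 counts depends on edgeR's prior count. Oasl2, which encodes an active synthetase, stood at 10.1, 11.3 and 9.31 CPM in controls and at 43.6, 33.2 and 32.8 CPM at 1 h. It was at 761, 672 and 634 CPM at 4 h, at 759.8, 754 and 761 CPM at 12 h and at 669, 722 and 728 CPM at 24 h. Every stimulated library was above every control, and the plateau was reached at 4 h. Its log2 fold change was 2.01 ± 0.19 at 1 h (adjusted p = 2.09e-12), 6.59 ± 0.14 at 4 h and 6.51 ± 0.14 at 12 h.

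The steps between neighbouring times set the members apart. From 1 h to 4 h all 8 tested members were called higher, beside 7.07% of all genes, with log2 fold changes from 2.97 ± 0.11 for Oas3 to 5.70 ± 0.12 for Oasl1. From 4 h to 12 h, 1 of 8 was called higher, beside 5.20% of all genes. That member was Oas1c, at 1.91 ± 0.28 (adjusted p = 1.57e-07). Oas3 (0.86 ± 0.09), Oas2 (0.77 ± 0.12), Oas1g (0.55 ± 0.14) and Oas1a (0.39 ± 0.11) also had adjusted p of at most 0.00272 but lay under the size cutoff. Oasl1 went the other way, by -0.60 ± 0.09 (adjusted p = 1.26e-07). For Oas1b and Oasl2, both at -0.08, the sign of this step turned with scaling by library size (0.13 and 0.14). From 12 h to 24 h, 0 of 8 members were called in either direction, beside 1.29% of all genes. DESeq2 also called 0, and 6 members, like 3159 genes in all, had an unadjusted p under 0.05. The 3 with an adjusted p under 0.05 were Oasl1 (-0.80 ± 0.09, adjusted p = 8.22e-10), Oas2 (-0.58 ± 0.11, adjusted p = 4.93e-05) and Oas1b (-0.55 ± 0.17, adjusted p = 0.0142). The antisense share of Rn45s counts, a measure of strand purity, ran from 0.0386% to 0.122% at control, 1, 4 and 12 h and from 0.00603% to 0.0214% in those of 24 h, IL-4 and IL-13, and its part in the comparisons across these sets was not tested.

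**Figure D3:**
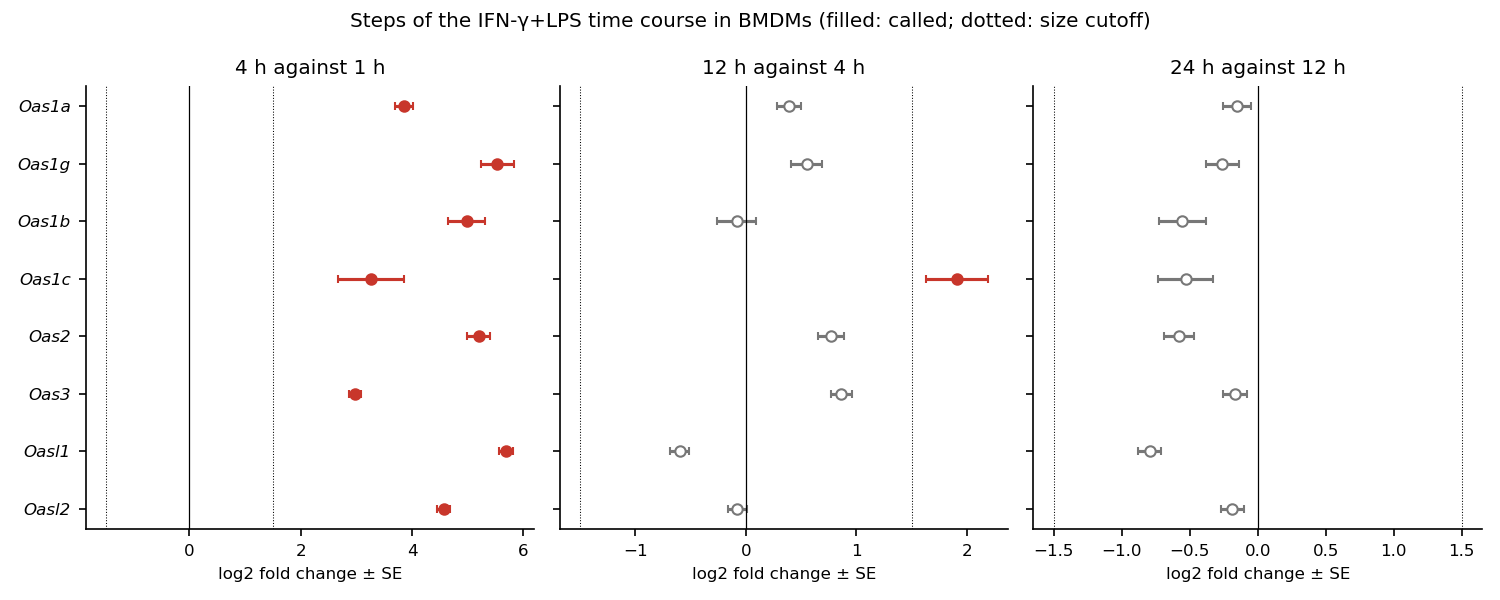
Log2 fold change (x axis, bars are SE) of each member between neighbouring times of IFN-γ-primed LPS. All 8 members are called from 1 h to 4 h, only Oas1c from 4 h to 12 h, and none from 12 h to 24 h. Filled points passed both cutoffs, dotted lines mark the size cutoff.

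Set against exon length, so that members could be compared with each other, the make-up of the family changed with time. In control BMDMs, Oas1a held 37.7% of the summed CPM per kb and Oas3 26.1%, and Oasl1 held 0%. At 1 h, Oas3 held 28.4%, Oasl1 25.0% and Oas1a 21.2%. At 4 h, Oasl1 alone held 51.7%, at 327 CPM per kb ± 9.60 (SD, n = 3), ahead of Oasl2 at 108 CPM per kb ± 10.2 and Oas1a at 76.3 CPM per kb ± 5.94. By 24 h the share of Oasl1 was 26.8%, and Oas3 (19.5%), Oas1a (19.3%) and Oasl2 (19.3%) stood side by side, at 112 ± 11.5, 111 ± 5.34 and 111 ± 5.06 CPM per kb. Those 3 differed by less than their spread. The Oas1a and Oas1g shares carry the uncertainty of their shared sequence.

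**Figure D4:**
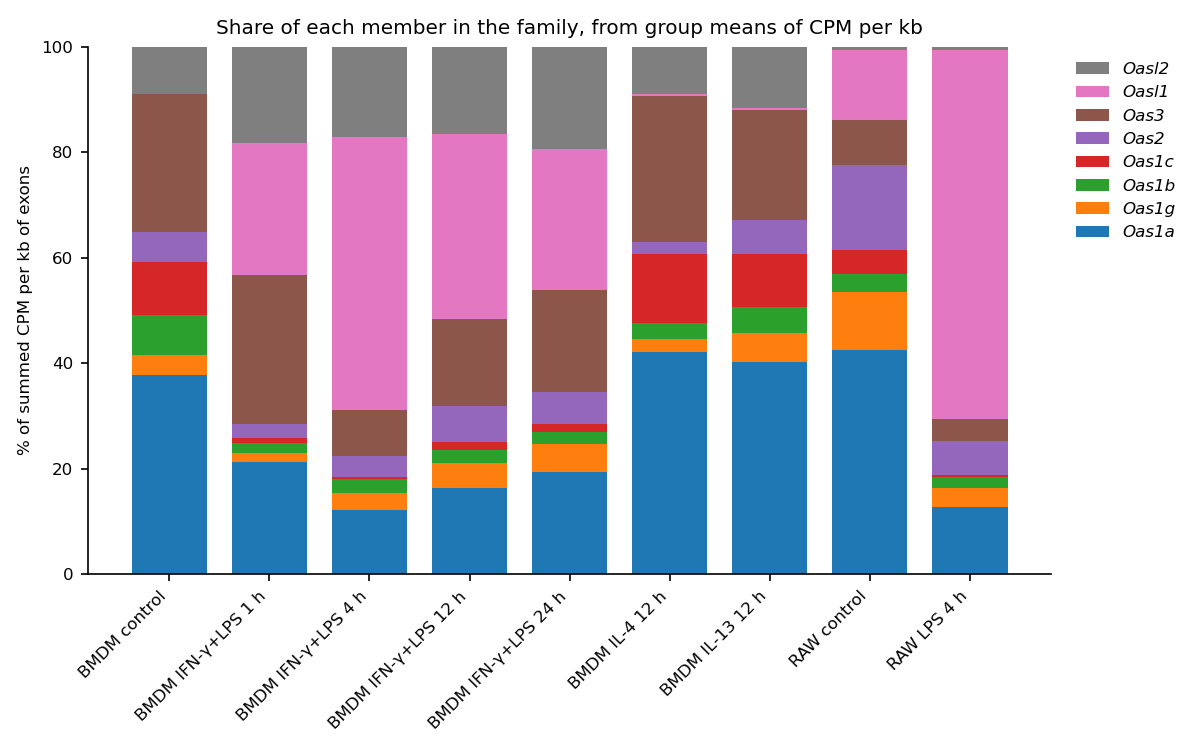
Share of each member (y axis, percent of the summed CPM per kb of exons, from group means) in the 9 groups. Oasl1 is absent or under 0.5% in control, IL-4 and IL-13 BMDMs and holds 51.7% in BMDMs and 70.0% in RAW264.7 at 4 h of stimulation.

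Other genes of 2-5A action were looked up beside the synthetases. Abce1, known for recycling ribosomes, was at a log2 fold change of 0.27 ± 0.12 at 4 h (adjusted p = 0.0386), and Pde12, a phosphodiesterase that breaks down 2-5A, at 0.68 ± 0.17 (adjusted p = 0.000586). Neither was called at any of the 4 times. Akap7, which encodes an anchoring protein with a phosphodiesterase domain, was called higher at 4 h alone (1.54 ± 0.27, adjusted p = 2.92e-06).

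With IL-4 and IL-13, 3 of the 8 members could be tested and none was called, which at the low share of all genes called is no result about the family. Only Oas1a, Oas3 and Oasl2 passed the filter on low counts in these 9 libraries, and the other 5 members did not. With the M2 cutoff of 0.7 on the log2 scale, 0 of 3 were called by edgeR with IL-4, beside 3.86% of all genes called in either direction, and 0 of 3 with IL-13, beside 5.36%. Between IL-13 and IL-4, 0 of 3 were called, beside 0.0649% of all genes. DESeq2 called 0 as well, and 0 of the 3 had an unadjusted p under 0.05 in any of these comparisons, against 2264, 2565 and 643 of 9252 genes. Oas3, the best measured, stood at 35.9, 34.8 and 28.2 CPM with IL-4 and at 25.7, 23.9 and 31.5 CPM with IL-13, overlapping the controls. Its log2 fold change was -0.01 ± 0.17 with IL-4 and -0.33 ± 0.18 with IL-13 (adjusted p = 0.987 and 0.234). Oas1a and Oasl2 had log2 fold changes from -0.11 to 0.36, with adjusted p of 0.434 or more. Oasl1 had 1 count over the 3 IL-4 libraries and 1 over the 3 IL-13 libraries, at or under the floor. Oas2 stood at 1.74, 1.22 and 2.56 CPM with IL-4, which is 2 to 4 counts, below all 3 controls, and at 4.50, 5.70 and 5.63 CPM with IL-13. All 8 members were tested with no filter on low counts and in the fit of all 9 groups, and 0 were called in any of the 3 comparisons, Oas2 included.

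At 12 h the M1 and M2 arms could be set against each other directly, with no shared control. All 8 members were called higher with IFN-γ-primed LPS than with IL-4, beside 8.58% of all genes, and all 8 than with IL-13, beside 8.59%. Oas1b, Oas1c, Oas1g, Oas2 and Oasl1 had failed the filter in the control, IL-4 and IL-13 libraries. They passed it in this fit of all 9 groups through groups where they were high. With 10 counts required in every sample, 2 members could be tested. Both were called higher, beside 375 of 6045 genes against IL-4 and 375 against IL-13. Against IL-4 the smallest log2 difference was that of Oas1c, 2.62 ± 0.29 (adjusted p = 1.12e-12), and the next that of Oas1a, 4.37 ± 0.15. Against IL-13 they were again Oas1c, 2.86 ± 0.29, and Oas1a, 4.34 ± 0.15. For both, all 3 libraries of IFN-γ-primed LPS lay above all 3 of either M2 group.

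In RAW264.7 cells the family was partly on before any stimulus. The control line held Oas1a at 65.6 and 59.5 CPM, Oas1g at 22.5 and 17.3 CPM, Oas2 at 51.9 and 59.9 CPM and Oasl1 at 27.1 and 26.7 CPM. Each of these libraries lay above every control BMDM library, and the share of all genes that do so was not counted. In the fit of all 25 libraries, with a cutoff of 2 on the log2 scale, 4 of 8 members were called higher in control RAW264.7 than in control BMDMs, beside 9.67% of all 10612 genes. They were Oas1g (3.35 ± 0.40), Oas2 (3.35 ± 0.25), Oas1a (2.03 ± 0.19, adjusted p = 2.27e-15) and Oasl1, which was at least 45.5-fold higher in CPM. Oas1a sat at the cutoff and fell under it without BMDM control replicate 2 (1.80) or without RAW264.7 control replicate 1 (1.98). Oasl2 went the other way, 2.75 and 3.28 CPM against 9.31 to 11.3 CPM in BMDMs (-1.99 ± 0.37, adjusted p = 1.83e-06), just under the cutoff, and past it without BMDM control replicate 1 or 3 or RAW264.7 control replicate 2 (down to -2.13). Oas3 was at 48.2 and 46.3 CPM (0.26 ± 0.16, adjusted p = 0.138). In this fit a gene could pass the filter on low counts through any of the 9 groups. Strain, culture medium and cell source differ together between the lines and cannot be told apart.

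LPS alone for 4 h raised 2 of the 8 members past the cutoff in RAW264.7, beside 2.39% of 9406 genes. Oasl1 went from 27.1 and 26.7 CPM to 683 and 779 CPM, a log2 fold change of 4.94 ± 0.11. Oasl2 went from 2.75 and 3.28 CPM to 18.6 and 15.1 CPM (2.63 ± 0.38, adjusted p = 8.19e-11). Oas1b, Oas3, Oas2, Oas1g and Oas1a had log2 fold changes of 1.85, 1.48, 1.24, 0.95 and 0.79, with adjusted p of at most 2.39e-05, all under the size cutoff. Oas1b passed it without RAW264.7 control replicate 2 (2.24). Both LPS libraries lay above both controls for each of these 7, and the share of all genes that do so was not counted. Oas1c was lower in both LPS libraries, 3.72 and 2.93 CPM against 7.80 and 9.36 CPM (-1.19 ± 0.43, adjusted p = 0.0205), and not called. The smallest p an exact permutation test of 2 against 2 libraries can give is above 0.05, so these p-values rest on edgeR's spread shared across genes. The edgeR p-values of the BMDM comparisons rest on such a shared spread too.

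The 2 responses at 4 h differed for every member. The RAW264.7 change minus the BMDM change was below 0 for 8 of 8 members at an adjusted p of at most 0.01, beside 15.3% of all genes, in a test with no size cutoff. Here too a gene could pass the filter on low counts through any of the 9 groups. The members' median difference was -3.64 on the log2 scale, and that of all genes was 0.03. It ran from -2.22 ± 0.61 for Oas1c (adjusted p = 0.00246) to -4.54 ± 0.43 for Oas1g (adjusted p = 9.73e-15) among the members with control counts. With scaling by library size Oas1c missed the threshold (adjusted p = 0.0149), as it did in turn without 3 of the libraries (BMDM 4 h replicate 1, RAW264.7 control replicate 2 and RAW264.7 LPS replicate 2, at 0.0154 to 0.0195), and Oas1b missed it without RAW264.7 control replicate 2 (0.0306). In CPM, the end levels were closer than the changes. At 4 h Oas2 reached 96.9 to 119 CPM in BMDMs and 114 to 119 CPM in RAW264.7, overlapping, and Oasl1 831 to 880 CPM and 683 to 779 CPM. Oasl2 was far apart, at 634 to 761 CPM against 15.1 to 18.6 CPM, a ratio of means of 41.0. The changes carry TMM scaling and these CPM do not. The TMM factors were 0.717 to 0.751 for BMDMs at 4 h and 1.17 to 1.21 for RAW264.7 with LPS. A lower factor raises the scaled level, so TMM scaling would set BMDMs higher against RAW264.7 than CPM do. BMDMs had IFN-γ with LPS and RAW264.7 cells LPS alone, so the stimulus and the cell source cannot be told apart.

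**Figure D5:**
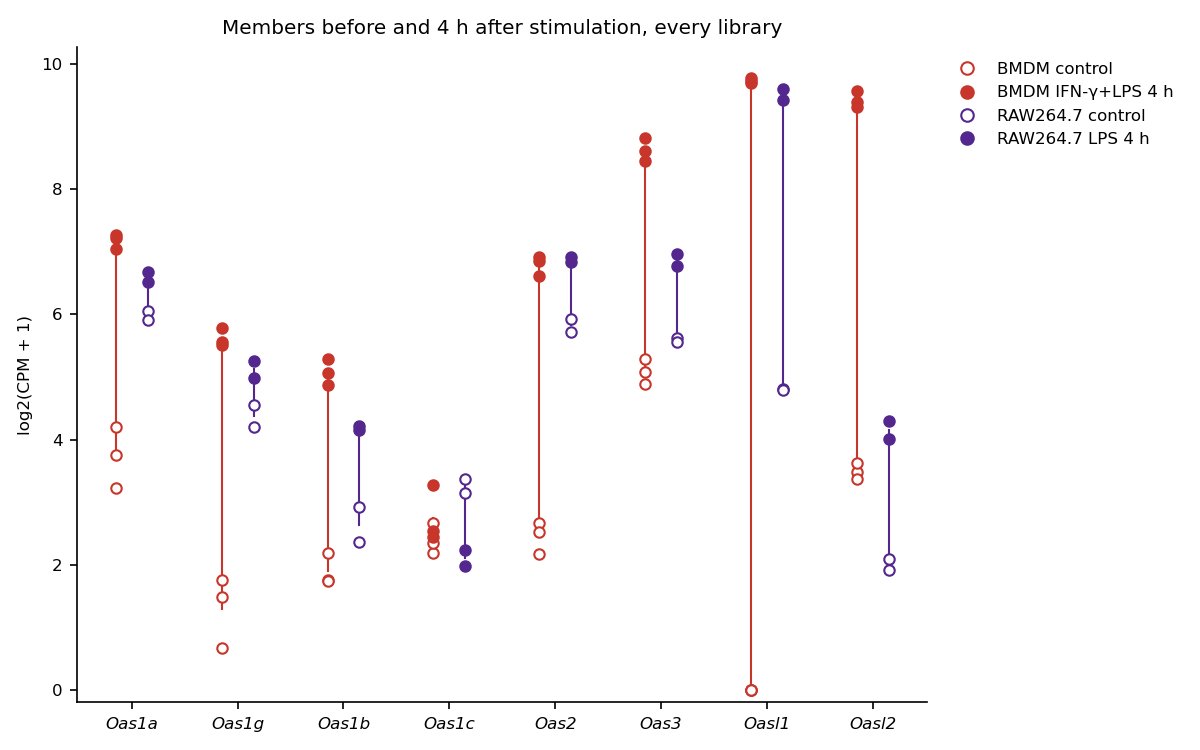
Every library before (open) and 4 h after (filled) stimulation, log2(CPM + 1) on the y axis, lines joining the means of the log values. In CPM, without TMM scaling, RAW264.7 starts higher than BMDMs for Oas1a, Oas1g, Oas2 and Oasl1 and ends near them for Oas2 and Oasl1, while Oasl2 stays low.

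The genes that carry interferon signals to the family were measured in the same libraries. Ifnb1, the interferon-β gene, had 0 counts in control BMDMs, 63.3 CPM ± 19.1 (SD, n = 3) at 1 h and 16.8 CPM ± 3.16 at 4 h. In RAW264.7 it had 0 counts in controls and 8 counts over the 2 LPS libraries, at 1.81 CPM. The log2 fold change of Stat2 against control was -0.79 ± 0.19 at 1 h and 4.17 ± 0.13 at 4 h, and that of Irf9 was 0.21 ± 0.16 and 2.10 ± 0.14. From 1 h to 4 h, Stat2 (4.96) and Irf9 (1.89) were both called higher. Irf7, whose translation OASL1 restrains, was at 1.15 ± 0.26 at 1 h, 7.34 ± 0.15 at 4 h and 8.34 ± 0.15 at 12 h. Usp18, Socs1 and Socs3, brakes on interferon signalling, and Isg15 formed a list of 4 genes. All 4 were called higher at 4 h (median 9.47), where 11.4% of all genes were. Of 10 other sensors of nucleic acid, 8 were called higher at 4 h (median 3.73), among them Eif2ak2, which encodes the kinase PKR, at 4.20 ± 0.17 (adjusted p = 3.35e-26), and Mavs and Tmem173 were not. In RAW264.7, Irf7 was called higher, at 2.11 ± 0.15, and Stat2 and Irf9 were not. The size cutoff there was 2 on the log2 scale, stricter than in the BMDM time course. Both genes were nevertheless higher in every RAW264.7 library with LPS than in every RAW264.7 control. Stat2 stood at 20.1 to 20.2 CPM in controls and 41.4 to 44.6 CPM with LPS. Irf9 stood at 59.2 to 69.8 CPM in controls and 127 to 135 CPM with LPS. The share of all genes that separate in this way was not counted. The mean level of Stat2 after LPS was 43.0 CPM ± 2.27 (SD, n = 2) against 366 CPM ± 25.6 (n = 3) in BMDMs at 4 h. That of Irf9 was 131 CPM ± 5.81 against 109 CPM ± 14.0, and that of Irf7 114 CPM ± 0.36 against 764 CPM ± 112.

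Over the 9 groups, each member was set against 10679 genes by the Pearson correlation of its group means of log2(CPM + 1), which is a description of 9 points that share libraries. The nearest genes were Usp18 for Oas1a (r = 0.986) and Oas1b (0.983), Rcl1 for Oas1g (0.982), Irf9 for Oas2 (0.975), Parp10 for Oas3 (0.995), Sp110 for Oasl1 (0.986), Znfx1 for Oasl2 (0.993) and Dclre1c for Oas1c (0.940). Of the 24 genes named this way, 3 for each member, 17 were named again with a pseudocount of 0.1. Among the members themselves, Oas1g and Oas2 were the most alike (0.995) and Oas1c and Oasl1 the least (0.407). Oas1c also had the lowest likeness to its nearest gene.

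The protein-coding genes beside both gene runs were looked up, since none other than Oas genes lies within either. Of the 4 genes beside them, 4930519G04Rik and Dtx1 had 0 counts in control, 4 h and 12 h BMDMs, and Rph3a stood at 0.198 CPM in controls and 0 at 4 h. 2210016L21Rik, beside Oasl1, stood at 17.1 CPM ± 0.779 (SD, n = 3) in controls and 10.3 CPM ± 2.67 at 4 h (log2 fold change -0.21, adjusted p = 0.492) and was not called.

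In order of level across all 9 groups, BMDMs at 12 h of IFN-γ-primed LPS came first for 7 members and those at 4 h for Oasl1. For Oas1a, Oas1b, Oas1c, Oas1g and Oas3 the first group and the next overlapped, at 12 h and 24 h or, for Oas1b, at 12 h and 4 h. For Oas2, Oasl1 and Oasl2 they did not. The 12 h libraries of Oasl2 (754 to 761 CPM) did overlap those of 4 h (634 to 761 CPM), which ranked after 24 h. With TMM scaling the step from 4 h to 12 h was -0.08 for Oas1b and Oasl2, so their order at these times depends on the scaling. The lowest group was BMDMs with IL-4 for Oas1b, Oas1g and Oas2, those with IL-13 for Oas3, those at 1 h for Oas1a and Oas1c, control BMDMs for Oasl1 and control RAW264.7 for Oasl2. It did not overlap the next for Oas1c or Oasl2 and did for the other members. Some of these groups held few counts, 5 each for Oas1b and Oas1g with IL-4 and 4 for Oas1c at 1 h. The share of all genes that rank or overlap in these ways was not counted, so this order is only a description.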

How the data were processed

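Read counts of 25 libraries were analysed. The libraries were made from rRNA-depleted RNA with a directional kit and sequenced as 101-base paired reads. The authors trimmed the reads (Trimmomatic 0.33 in the submitters' notes), aligned them to mm10 with STAR 2.5.1 and deposited raw counts per gene symbol, in whole numbers, unstranded and for each strand. The annotation release is not given in the sources used here. Counts on the sense strand, 93.9 to 158 times those on the other, were used without Rn45s, which took 20.1% to 39.8% of them. CPM divide by the remaining total. Reads of shared stretches (Oas1a and Oas1g) may have been left out of the counts.

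Genes passed edgeR's filterByExpr, and quasi-likelihood models (robust, TMM scaling, a mean for each group) were fitted in edgeR 4.0.16 (R 4.3.3), for the time course, for IL-4 and IL-13, for RAW264.7 and for all libraries together. SEs were derived from edgeR's F as |log2 fold change| / √F. Depth sets the precision: 3 counts over a group come to 0.438 to 0.695 CPM. Alternatives were DESeq2 1.42.0, library size alone, no filter or 10 counts in every sample, Rn45s kept, unstranded counts, the replicate number as a block, other sets of groups, looser cutoffs and leaving out each library. The scripts were tested on simulated counts. No replicate pair was the same library (chi-square per degree of freedom 1.30 to 4.53).

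All members, the other Oas1 rows and genes of 2-5A action and interferon signalling are named. So are a list of its brakes with Isg15, a list of nucleic acid sensors, the neighbours on the chromosome and the 3 genes most like each member. Some genes measured are not reported here. Members and lists were chosen with earlier results of these data known. Exon lengths and positions are from GENCODE M21. Figures were drawn with matplotlib 3.10.9.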

Additional observations from a re-analysis of the deposited data

Results flagged for a closer look

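Counts on the antisense strand were not used in the comparisons, and those of the 8 members were above control in 4 groups. Control BMDMs had 0 antisense counts over the 8 members in each library. With IFN-γ-primed LPS the mean per library was 2.33 (1 h), 14 (4 h), 22 (12 h) and 9 (24 h), and every library of these groups was above every control. They made up 0.878%, 0.371%, 0.401% and 0.166% of the members' counts on both strands, where all genes had 1.21%, 1.31%, 1.37% and 1.05%. Oas1h, with 0 sense counts in every library, had 0 antisense counts in controls and a mean of 1.33 at 24 h, with 1, 1 and 2 counts in the libraries. It had 3, 0 and 1 at 12 h, the same mean, 2 in 1 library at 4 h, 1 in 1 library with IL-13, and 2 to 5 in the RAW264.7 libraries. Annotated on the plus strand between 120861421 and 120873506 of chromosome 5, Oas1h lies next to Oas1g, whose minus-strand transcript ends at 120876142. Whether these reads belong to transcripts of their own was not tested.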

How the results depend on the processing

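Most results kept their direction and side of the threshold. Of 2655 recomputed fold changes of the members, 2622 kept both, 12 lost and 21 gained a call, 0 called values turned sign, and 20 uncalled ones did. Requiring 10 counts in every sample left few members to test, since most had under 10 in controls. It gave calls for 1 of 3 members tested at 1 h, for 3 of 3 at 4 h, 12 h, 24 h and 4 h against 1 h, for 0 of 3 at 12 h against 4 h, for 1 of 5 in RAW264.7, for 1 of 2 in RAW264.7 control against BMDM control, for 2 of 2 against IL-4 and IL-13, and for 2 of 2 in the difference of the responses. All genes called higher and lower were then 251 and 23 of 6458 at 1 h and 624 and 336 at 4 h. They were 446 and 305 at 12 h, 374 and 266 at 24 h and 343 and 198 at 4 h against 1 h. From 4 h to 12 h they were 124 and 192, and in RAW264.7 118 and 20 of 8551. Of 6045 genes, they were 281 and 416 in RAW264.7 control against BMDM control. They were 375 and 218 against IL-4, 375 and 216 against IL-13 and 865 and 1055 in the difference of the responses. With an FDR of 0.05 and no size cutoff, 6 members were called at 12 h against 4 h (5 higher, 1 lower, beside 2180 and 2284 of 9568 genes), 3 at 24 h against 12 h (0 and 3, beside 925 and 1186 of 9568) and 8 in RAW264.7 (7 and 1, beside 1828 and 1695 of 9406). Leaving out 1 library gave 2 to 3 calls at 1 h and in RAW264.7, 3 to 5 in RAW264.7 control against BMDM control and 6 to 8 in the difference of the responses. All genes called higher and lower were then 473 to 505 and 190 to 218, of 9750 to 9833, at 1 h. In RAW264.7 they were 226 to 250 and 62 to 91, of 9651 to 9742. In RAW264.7 control against BMDM control they were 1022 to 1056 and 1370 to 1468, of 10584 to 10851. In the difference of the responses they were 798 to 1064 and 1365 to 1691, of 10584 to 10851. With library size alone, all genes called higher and lower were 785 and 1914 at 4 h (1086 and 1094 with TMM), 425 and 290 at 1 h (482 and 199), 700 and 1162 at 12 h (849 and 806), 656 and 862 at 24 h (759 and 663), 482 and 1057 from 1 h to 4 h (676 and 665), 671 and 311 from 4 h to 12 h (498 and 426), 726 and 1205 against IL-4 (910 and 792), 720 and 1267 against IL-13 (912 and 790), and 2234 and 954 in the difference of the responses (1035 and 1619).

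Samples of the same replicate number did not deviate together (mean correlation 0.0215 for the time course, 0.00813 for the interleukin libraries, -0.00379 for RAW264.7), so the pairing was not used. With the replicate block, 3 members were called at 1 h, 7 at 4 h, 8 at 12 h and 24 h, 1 from 4 h to 12 h, 2 in RAW264.7 and 4 in RAW264.7 control against BMDM control, as without it. All genes called higher and lower were then 487 and 200 of 9568 at 1 h and 1086 and 1100 at 4 h. They were 849 and 812 at 12 h, 762 and 664 at 24 h and 495 and 427 from 4 h to 12 h. In RAW264.7 they were 225 and 77 of 9406. In RAW264.7 control against BMDM control they were 1025 and 1406 of 10612. Depth limits Oas1b, Oas1c, Oas1g, Oas2 and Oasl1 most in unstimulated cells, where they had 0 to 9 counts per BMDM library.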
